A study of Mus musculus with 38 samples.

Results

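The mitochondrial ribosomal proteins were taken as all genes whose symbol starts with Mrpl or Mrps followed by a digit, on array features that carry a single gene symbol, with the feature of highest mean signal used for each gene. This gave 74 of the 18820 genes measured, 46 with an Mrpl symbol (large subunit) and 28 with an Mrps symbol (small subunit). They were read from 87 features, and 12 members had several. A further 4 genes of the family (Mrpl24, Mrpl43, Mrpl53 and Mrps6) were named only on features shared with other genes and were not analysed here. The samples were whole brains and livers from the inbred mouse strain C57BL/6J, and the labels name no transgene or deletion. Haloperidol, a D2 dopamine receptor blocker used as an antipsychotic and called drug in the sample titles, or placebo was given for 30 days from slow-release pellets. Within a tissue each array came from a separate mouse by the design text, with 10 brains of either treatment and 9 livers of either (38 arrays). Whether a brain and a liver came from the same mouse is not given in the labels. Age and dose are not given in the labels.

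Mitochondria keep a small genome and translate the proteins it encodes, all core subunits of the respiratory chain and ATP synthase, on a ribosome of their own. The ribosomal RNAs come from the mitochondrial genome, whereas every ribosomal protein is encoded in the nucleus, made in the cytosol and imported. Many members descend from bacterial ribosomal proteins and others were added during the evolution of mitochondria. The large subunit joins amino acids and holds the exit tunnel, and the small subunit binds the messenger RNA and reads its codons. Symbols do not follow structure in every case: ribosome structures place the Mrps18a and Mrps30 proteins in the large subunit, and the Mrps36 protein is now assigned to the oxoglutarate dehydrogenase complex.

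The arrays matched their tissue labels but were not alike. The summed log2 level of 4 neuronal markers was 47.06 to 47.90 in brain and 15.59 to 18.10 in liver, and that of 4 hepatocyte markers was 51.25 to 51.84 in liver. Hepatocyte markers in brain summed to 39.48 in haloperidol 4T, against a haloperidol median of 25.21. Anterior pituitary markers summed to 42.14 in placebo 1L and 40.38 in haloperidol 1R, against medians of 28.34 and 29.10 in those brain groups. Haloperidol 2N was close to 1R in the pituitary genes Gh (10.19 against 10.45) and Prl (8.95 against 8.90), and placebo 2R had Gh at 8.28. The arrays of a group correlated at 0.964 to 0.992 and no pair was identical. The tissues appear to have been normalized apart, since the sorted values of the tissue means lay up to 1.42 log2 units apart but those of an array at most 0.23 from its tissue's mean. Levels were therefore compared within a tissue only.

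Promoter sequence was taken from RefSeq (build GRCm38.p6), as windows from 250 bases before to 50 bases after a transcript start, and 71 windows of 65 members were found. Because many members moved together in brain, the windows were searched on both strands for the motifs of factors known to act at promoters of nuclear genes for mitochondrial proteins. The motif of NRF1 (GCGCANGCG) was in 22.5% of member windows, 6.25% of all 32851 windows and 12.3% of windows of genes tested in brain. The ETS motif bound by GABPA (CCGGAAG) was in 33.8%, 8.86% and 15.4%, and the YY1 motif (AAGATGGCG) in 11.3%, 1.40% and 2.66%. The shares were 40.8%, 37.4% and 36.8% for NF-Y (CCAAT), 52.1%, 35.7% and 61.5% for SP1 (GGGCGG), 9.86%, 7.15% and 9.66% for the E-box (CACGTG) and 7.04%, 13.6% and 7.26% for the TATA box (TATAAA). The NRF1, ETS and YY1 motifs were thus more frequent in member windows than in both backgrounds. The E-box, in 7 of 71 member windows, was near its share in windows of genes tested in brain, and NF-Y was slightly above it. No difference in motif frequency was tested. Motif matches can overlap one another, and a match is a description of letters, not of binding. Among named members, Mrpl37 held most kinds of motif (4), and Mrpl18 and Mrpl32 come first by symbol among those with 3. The others with 3, all with an Mrps symbol, are not shown. The windows of Mrpl37, Mrpl18 and Mrpl32 are shown 5′ to 3′ on the gene's strand, with matches on either strand in capitals. They are Mrpl37 (chr4:107066817-107067116, minus strand; YY1, NF-Y, SP1 and E-box), Mrpl18 (chr17:12916042-12916341, minus strand; ETS, NF-Y and SP1) and Mrpl32 (chr13:14612988-14613287, minus strand; NRF1, NF-Y and SP1).
Mrpl37: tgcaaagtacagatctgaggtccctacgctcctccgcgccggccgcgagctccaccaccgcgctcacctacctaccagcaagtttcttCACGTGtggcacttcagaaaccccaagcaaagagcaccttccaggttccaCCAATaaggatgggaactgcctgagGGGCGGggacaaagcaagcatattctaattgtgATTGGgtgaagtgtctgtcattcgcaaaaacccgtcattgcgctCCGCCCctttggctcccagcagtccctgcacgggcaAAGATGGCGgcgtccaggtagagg
Mrpl18: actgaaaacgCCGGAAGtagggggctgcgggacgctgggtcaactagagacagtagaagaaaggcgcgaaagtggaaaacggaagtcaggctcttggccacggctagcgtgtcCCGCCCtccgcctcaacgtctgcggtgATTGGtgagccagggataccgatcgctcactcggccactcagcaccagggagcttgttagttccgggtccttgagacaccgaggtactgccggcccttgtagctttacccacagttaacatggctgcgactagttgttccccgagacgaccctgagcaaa
Mrpl32: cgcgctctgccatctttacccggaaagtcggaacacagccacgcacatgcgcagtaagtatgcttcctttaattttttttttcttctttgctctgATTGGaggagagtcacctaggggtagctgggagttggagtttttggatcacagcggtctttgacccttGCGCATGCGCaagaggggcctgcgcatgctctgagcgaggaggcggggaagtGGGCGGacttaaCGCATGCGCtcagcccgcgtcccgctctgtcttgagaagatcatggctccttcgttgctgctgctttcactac
These genes differed in their brain change, given in full further on: 0.05 log2 units for Mrpl37, 0.26 for Mrpl18 and 0.72 for Mrpl32. Over the 65 members, the median brain change was 0.18 for the 16 with an NRF1 motif and 0.36 for the 49 without, and 0.39 for the 24 with an ETS motif and 0.32 for the 41 without. With and without a YY1 motif it was 0.33 in each case (8 and 57 members).

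The first comparison asked how the members differed in brain after chronic haloperidol. Members of both subunits rose: 51 of 74 were higher with haloperidol and 0 were lower (limma, Benjamini-Hochberg over 12547 genes, threshold 0.05), where 15.2% of all genes tested were higher and 15.2% were lower. The rises were 32 of 46 in the large and 19 of 28 in the small subunit. The median log2 change was 0.34 over the members, 0.39 in the large and 0.31 in the small subunit, against -0.02 over all genes. All 74 members passed the filter on low values, 72 had a change above 0, and 1 had an unadjusted p under 0.05 with a change below 0 (Mrps5). A Wilcoxon rank sum test called 42 higher and 0 lower, where it called 11.5% of all genes higher. Changes above 1.5-fold were measured in 14.9% of members (11 genes, of which 10 are in the large subunit) and 2.20% of all genes. In a whole organ, more cells rich in a transcript cannot be told apart from more of it per cell.

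**Figure D1:**
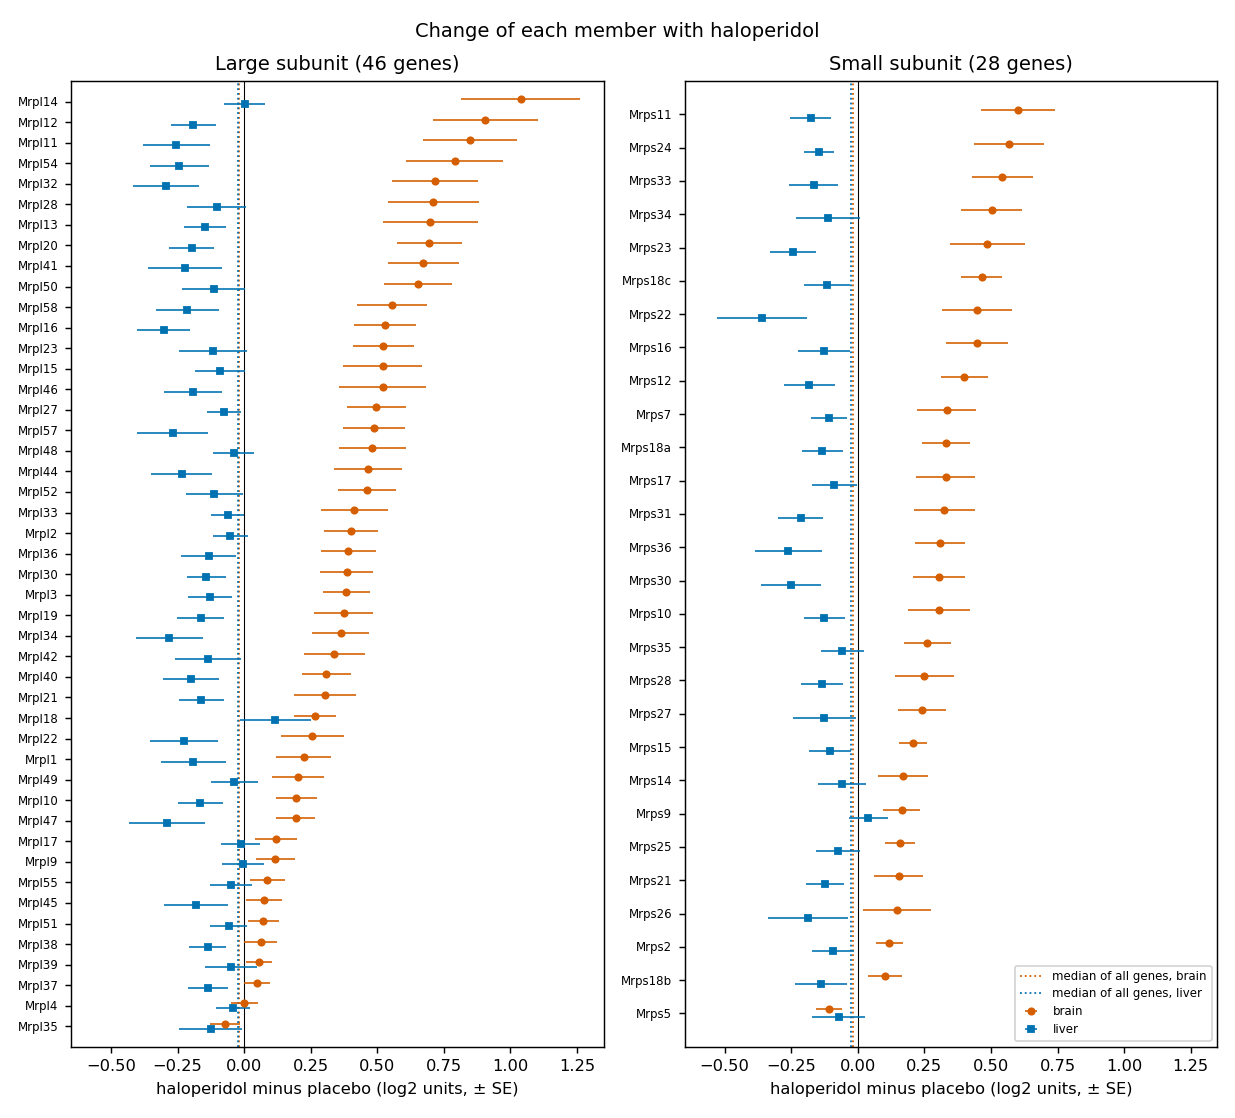
Haloperidol minus placebo difference in log2 expression of each member (points, with the standard error as bars) in brain and liver, by subunit and ordered by the brain value, with dotted lines at the median of all genes in each tissue. In brain 72 of 74 points lie above 0, and in liver 71 of 74 lie below.

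No member separated the treatments completely. Of the 74, 37 had at least 9 of 10 haloperidol arrays above the placebo mean, as did 14.3% of all genes, and for 0 members did the groups not overlap, against 0.104% of all genes. The SD was larger with haloperidol for 68 of 74 members and 77.7% of all genes tested, though not for Mrps18c (0.158 against 0.188).

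Mrpl14, a protein of the face that meets the small subunit, ran from 7.27 to 7.89 in placebo brains (median 7.60) and from 7.40 to 9.51 in haloperidol brains (median 8.84). It rose 2.05-fold (log2 change 1.04, SE 0.22, limma adjusted p = 0.00444), with 8 haloperidol arrays above the highest placebo array and 1 below the placebo mean. Mrpl12, part of the stalk that recruits translation factors, ran from 7.74 to 8.61 (median 7.86) with placebo and from 7.74 to 9.75 (median 8.93) with haloperidol. Its change was 0.91 (SE 0.20, limma adjusted p = 0.00471), with 9 of 10 arrays above the placebo mean. Mrpl11, which lies at the base of that stalk, ran from 8.02 to 9.05 (median 8.41) and from 8.49 to 10.01 (median 9.38), a change of 0.85 (SE 0.18, limma adjusted p = 0.00437) with 10 of 10 above. Mrpl10, which anchors the Mrpl12 protein, did not pass: it was at 9.30 to 9.85 with placebo (median 9.64) and 9.52 to 10.06 with haloperidol (median 9.82), with a change of 0.20 (SE 0.077, limma adjusted p = 0.0566). Its limma adjusted p was 0.00808 once the array median was subtracted, 0.0488 under a stricter filter on low values, 0.0479 with the tag digit as a block, 0.0328 for the mean of all probes, and 0.0301, 0.0403, 0.0224, 0.0498 and 0.0351 without haloperidol 1R, 2N or 4L or placebo 3L or 4B, so it passed in each of these fits. The genes of the stalk region thus had changes of unlike size, and the differences between them were not tested.

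Mrpl32, whose precursor is cleaved by the m-AAA protease before ribosome assembly, ran from 6.72 to 7.26 (median 7.00) with placebo and 7.02 to 8.51 (median 7.51) with haloperidol. Its change was 0.72 (SE 0.16, limma adjusted p = 0.00509), with 10 of 10 arrays above the placebo mean. Mrpl54, a protein with no bacterial counterpart, changed by 0.79 (SE 0.18, limma adjusted p = 0.00525) from a placebo range of 7.00 to 8.05 (median 7.56) to 7.58 to 9.22 (median 8.39). Mrpl28 changed by 0.71 (limma adjusted p = 0.00631), from 7.13 to 8.05 (median 7.46) with placebo to 7.34 to 9.11 (median 8.30). Each of these 3 genes had at least 9 of 10 haloperidol arrays above the placebo mean and ranges that overlapped.

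Mrpl20, whose bacterial counterpart is needed to assemble the large subunit, had the smallest p of the large subunit, with a change of 0.70 (SE 0.12, limma adjusted p = 0.00357). It ran from 7.25 to 7.97 (median 7.52) with placebo and from 7.63 to 8.81 (median 8.17) with haloperidol, and 9 haloperidol arrays lay above the highest placebo array. Mrpl3, a protein that reaches towards the site of peptide bond formation, changed by 0.38 (SE 0.090), Mrpl16 by 0.53 (SE 0.12), Mrpl44, which has an RNase III fold, by 0.47 (SE 0.13) and Mrpl18 by 0.26 (SE 0.078), with limma adjusted p from 0.00479 to 0.0156.

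Among small subunit genes the largest rises were smaller than the leading ones of the large subunit. Mrps11, a protein of the platform, ran from 6.98 to 7.46 (median 7.27) with placebo and 7.37 to 8.52 (median 7.83) with haloperidol, a change of 0.60 (SE 0.14, limma adjusted p = 0.00532). All 10 haloperidol arrays lay above its placebo mean and 6 above its highest placebo array. Mrps24 changed by 0.57, Mrps33 by 0.54, Mrps34 by 0.50 and Mrps23 by 0.49, with limma adjusted p from 0.00444 to 0.0137. Mrps12, a protein of the decoding centre, changed by 0.40 (SE 0.088), and Mrps16 and Mrps22, in which mutations cause human respiratory chain disease, by 0.45 each. Mrps31 changed by 0.32 (limma adjusted p = 0.0357).

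Of the 3 paralogs of bacterial S18, which occupy different sites of the ribosome, 2 passed in brain. Mrps18c ran from 8.40 to 8.93 (median 8.57) with placebo and 8.68 to 9.26 (median 9.08) with haloperidol. It rose by 0.47 (SE 0.077) and had the smallest p of all members (limma adjusted p = 0.00312), with 10 of 10 arrays above the placebo mean. Mrps18a rose by 0.33 (SE 0.089, limma adjusted p = 0.00997), and Mrps18b was at 0.10 (SE 0.064, limma adjusted p = 0.226), with 5 arrays on either side of the placebo mean.

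**Figure D2:**
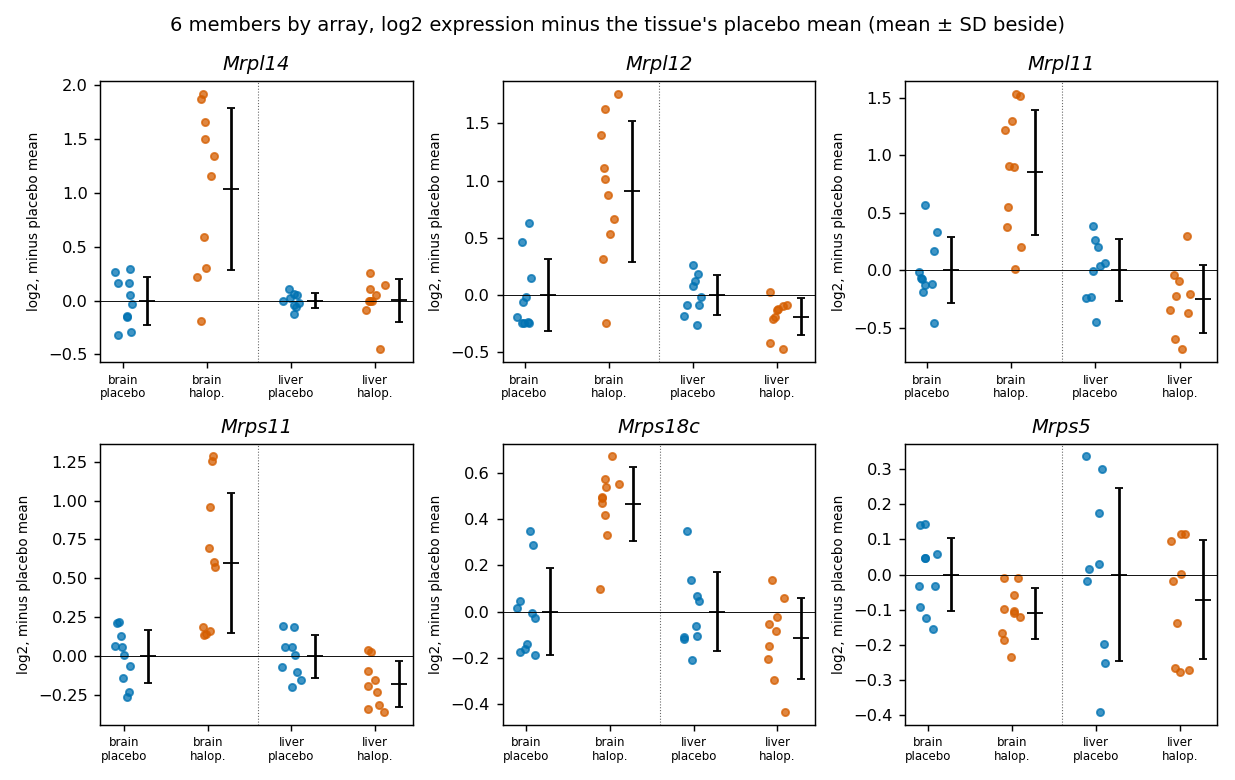
Log2 expression of 6 members on each array, minus the placebo mean of its tissue (points; mean ± SD beside them), with 10 brain arrays and 9 liver arrays per group. In brain the haloperidol points of Mrpl14, Mrpl12, Mrpl11, Mrps11 and Mrps18c reach above the placebo range and overlap it, and those of Mrps5 all lie below the placebo mean.

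In brain 23 members did not pass, 14 in the large and 9 in the small subunit, and some of these had changes as large as those of members that passed. Mrps10, picked after its values were seen, was at 0.30 (SE 0.12, limma adjusted p = 0.0508), and others were near 0. Mrpl4, which lines the exit tunnel, was at 8.97 to 9.25 (median 9.10) with placebo and 8.97 to 9.30 (median 9.09) with haloperidol, a change of 0.0008 (SE 0.051). Mrpl37 (0.05, SE 0.049) and Mrpl39 (0.06, SE 0.049), which have no bacterial counterpart, also lay near 0. Mrps2 was at 0.12 (SE 0.049, limma adjusted p = 0.0692). Its limma adjusted p was 0.00425 with the array median subtracted, 0.0342 with repeated quantile normalization and 0.0475 with array weights. A Wilcoxon rank sum test gave an adjusted p of 0.0304. Of 20 fits with 1 array left out, Mrps2 passed in 2, those without haloperidol 1R (0.0414) or 2L (0.0477). It did not pass in the other alternatives, such as the fit with no filter on low values (limma adjusted p = 0.109). Mrps9, which extends towards the site of the growing peptide's transfer RNA, was at 0.16 (SE 0.069, limma adjusted p = 0.0717). Mrps5, a protein of the messenger RNA entry site, ran from 9.23 to 9.53 (median 9.39) with placebo and 9.15 to 9.37 (median 9.28) with haloperidol. All 10 haloperidol arrays lay below its placebo mean (change -0.11, SE 0.049, limma adjusted p = 0.0869). By origin, 30 of 45 members with a bacterial counterpart were higher (median change 0.36), as were 21 of 29 found in mitochondria only (0.32).

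A second feature existed for some members, which gave 13 further readings, and 12 of these had the sign of the feature used in brain and 13 in liver. Member genes were short, with a median span of 7805 bases against 25213 over all genes tested in brain, and lay on 17 chromosomes. Across genes, which are not independent, the brain change correlated with the log10 of gene span at -0.20 among the 74 members and -0.20 among all genes. In the third of genes with the shortest span, the median change was 0.39 over 58 members and 0.05 over 4177 genes.

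Relative to the median gene of each array, both subunits were at a higher mean level in haloperidol brains. The large subunit mean lay from -0.11 to 0.21 log2 units relative to the median gene in placebo brains (median 0.01) and from 0.02 to 0.84 in haloperidol brains (median 0.43). The small subunit mean lay from -0.33 to -0.09 (median -0.25) and from -0.26 to 0.44 (median 0.08). Placebo 4B had the highest large subunit level of its group, and haloperidol 4N and 1R had the highest and lowest of theirs in both subunits. For the large subunit 8 and for the small subunit 7 of 10 haloperidol arrays exceeded every placebo array, and the rest overlapped them. The difference in group means was 0.39 (SE 0.098) for the large and 0.30 (SE 0.078) for the small subunit. The gap between the subunit means, which depends on the features in its level, was 0.26 ± 0.034 with placebo and 0.35 ± 0.062 with haloperidol (SD, n = 10 each), and was above the placebo mean on 10 of 10 haloperidol arrays.

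**Figure D3:**
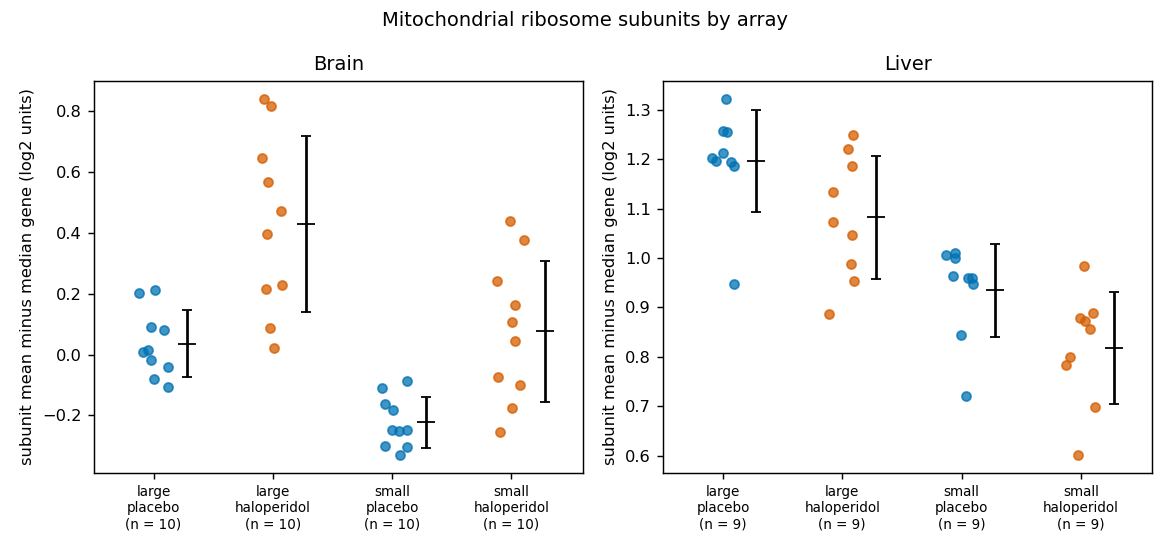
Mean log2 level of the large (46 genes) and small (28 genes) subunit minus that of the median gene, on each brain and liver array (points), with the group mean ± SD beside them. Haloperidol brains spread upward from the placebo range, and haloperidol livers lie lower on average with overlap; heights are not comparable between subunits or tissues.

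Array-wide differences moved with treatment in brain, and the members followed them. The median over all probes was 6.33 ± 0.044 in placebo and 6.19 ± 0.072 in haloperidol brains (SD, n = 10 each). An array-wide axis was taken as the first principal component of the 12473 tested genes that are no members, and it held 52.8% of their variance in brain. It was scaled to an SD of 1 and turned so that high values go with a low array median (r = -0.79). Placebo brains lay between -1.26 and -0.14 on it and haloperidol brains between -0.74 and 2.25, with 4N highest.

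Over the 20 brain arrays, the level of the large subunit relative to the median gene correlated with this axis at 0.993 (Spearman 0.984) and that of the small subunit at 0.994 (0.988). Within the 10 placebo arrays alone r was 0.944 and 0.939, and within the 10 haloperidol arrays 0.993 and 0.996. Without the 2 arrays farthest from the median of the axis, r over all arrays was 0.989 for each subunit. Subunit levels and axis come from the same arrays, and these values are descriptions. Haloperidol 1R and 4L, which lay within the placebo range of the axis, had large subunit levels of 0.02 and 0.09, also within the placebo range.

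Most members shared in this. The correlation with the axis was above 0.5 for 67 of 74 members (90.5%) and 27.8% of all genes tested, with medians of 0.89 and -0.11. Mrpl14 (0.959), Mrpl20 (0.943) and Mrpl12 (0.937) were close to it, Mrps18c was at 0.800, Mrpl4 at 0.240 and Mrps5 at -0.492. After treatment means were removed, the mean correlation between pairs of members was 0.57, against 0.024 between all genes. Once the axis was also removed from each gene, these values were 0.049 and 0.0285. The gap between subunits also followed the axis, with r of 0.939 over all brain arrays.

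**Figure D4:**
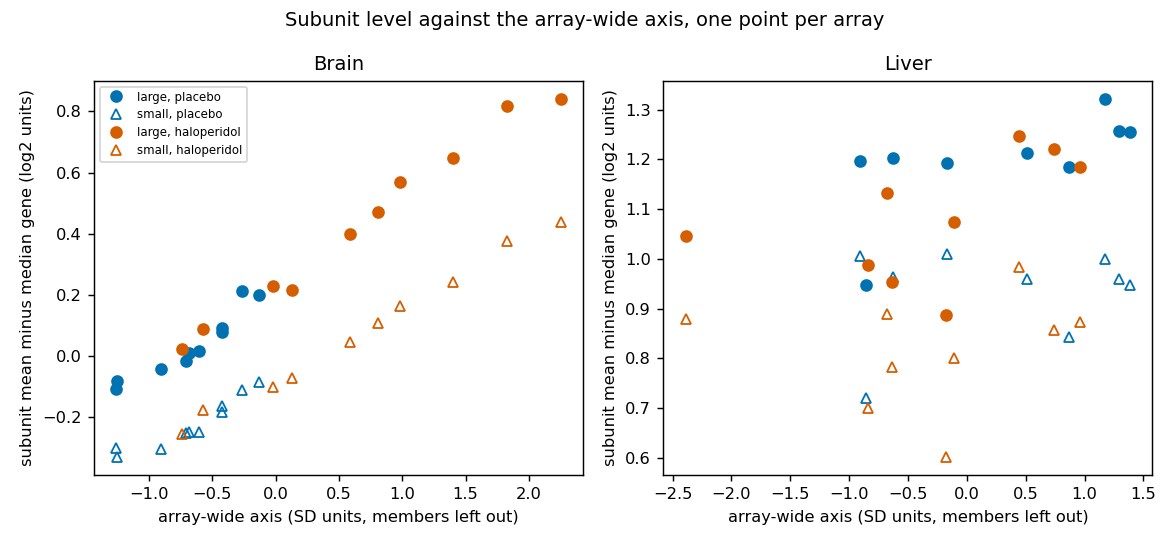
Level of the large (filled circles) and small (open triangles) subunit relative to the median gene against the array-wide axis, which was computed without the members, on each brain and liver array by treatment. In brain all 20 arrays lie along a line for each subunit, placebo arrays included, and in liver the points scatter.

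With the axis as a covariate, the brain changes of the members were centred near 0, as were those of all genes. In this fit 0 members passed (limma), as did 0% of the 12547 genes tested, 36 of 74 were above 0 and the median was -0.0018, against -0.0021 over all genes, and 4 members (5.41%) had an unadjusted p under 0.05 against 7.28% of all genes. The largest value was 0.29 for Mrps18c (SE 0.087, limma adjusted p = 0.559), followed by Mrpl20 at 0.22 and Mrps12 at 0.19. With the array median as the covariate 0 members and again 0% of all genes passed, 53 were above 0 and the median was 0.084 against -0.037, and 3 members (4.05%) had an unadjusted p under 0.05 against 4.38%. Each covariate itself differed by treatment and can absorb its effect, so the effects of haloperidol and of the axis cannot be told apart here.

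**Figure D5:**
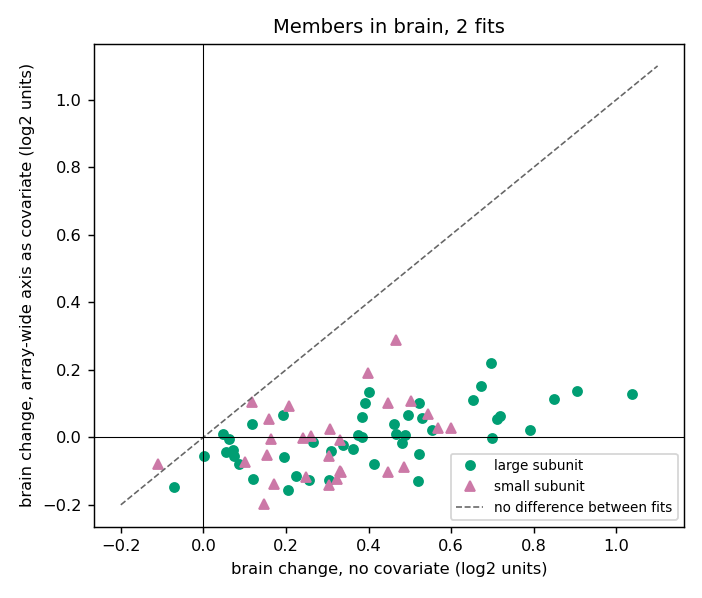
Brain change of each member without a covariate (horizontal) and with the array-wide axis as a covariate (vertical), in log2 units, by subunit; the dashed line marks equal values. The members span -0.11 to 1.04 without the covariate and -0.20 to 0.29 with it.

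When the array median was subtracted, which adds 0.14 to each brain change, 68 of 74 members were higher, 42 large and 26 small, where 32.6% of all genes were. Each subunit's median minus that of all genes was 0.41 for the large and 0.33 for the small subunit with or without this step. Mrps5 then had a change of 0.03. Mrpl37, Mrpl39 and Mrps18b then also passed (limma adjusted p from 0.0213 to 0.03). Another fit left out placebo 1L, highest in pituitary markers, haloperidol 4T, highest in hepatocyte markers, and haloperidol 4N, highest on the axis. It kept haloperidol 1R and 2N, which were also high in pituitary markers, so it did not remove all such arrays. Without placebo 1L and haloperidol 4N and 4T, 38 members were higher, all of them among the 51, where 9.44% of all genes were. They comprised 26 of the large and 12 of the small subunit, with medians of 0.34 and 0.24.

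Some markers of other cells moved with the members in brain. Of 4 markers of microglia and macrophages 2 were higher, Aif1 by 0.57 and C1qa by 0.30. The receptor gene Csf1r was at -0.01 (SE 0.077, limma adjusted p = 0.898) and Adgre1 at 0.22 (limma adjusted p = 0.0587), and their summed level was 26.94 to 29.61 with placebo and 28.87 to 30.49 with haloperidol. The only measured marker of red blood cell precursors, Alas2, rose by 0.85 (SE 0.11, limma adjusted p = 0.00105), from 6.31 to 7.30 with placebo to 7.47 to 8.13 with haloperidol. The summed levels of neuronal, astrocyte and oligodendrocyte markers overlapped, and 0 of their 8 measured genes were called. The part of these cells in the result was not tested.

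Other genes of mitochondrial translation are given beside the 15.2% of all genes that were higher and the 15.2% that were lower in brain. Of 4 measured ribosomal or ribosome-binding proteins with other names, Chchd1 rose by 0.98 (SE 0.20, limma adjusted p = 0.00432) and Ptcd3 by 0.33. Dap3, a small subunit gene, was at 0.17 and Oxa1l, the gene of the membrane insertase that binds the ribosome, at -0.06, and neither passed. Translation factors had 3 of 12 higher, the recycling factor gene Mrrf (0.45), the release factor gene Mtrf1 (0.34) and the initiation factor gene Mtif3 (0.29). The elongation factor homologue Gfm2 fell by 0.22, and the median of the list was 0.01.

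Ribosome assembly factors had 6 of 20 higher and 1 lower, with a median of 0.17. Mettl15 rose by 0.28 (limma adjusted p = 0.00574), Malsu1, which binds the Mrpl14 protein, by 0.42 and Gtpbp10, a GTPase of large subunit assembly, by 0.45. Mettl17, a factor of small subunit assembly, fell by 0.55 (limma adjusted p = 0.00444). Aminoacyl-tRNA synthetases, which charge transfer RNAs, had 2 of 16 higher, Yars2 (0.35) and Pars2 (0.23), and 2 lower, Aars2 (-0.20) and Ears2 (-0.19), with a median of 0.07. Of genes of mitochondrial transcription and its regulators, 2 of 14 were higher, the elongation factor gene Tefm (0.68) and the packaging factor gene Tfam (0.29). The coactivator gene Ppargc1b fell by 0.40 and the regulator gene Gabpa by 0.20, with a list median of -0.06. The factor genes Nrf1 (-0.09) and Yy1 (-0.10) did not pass. For the synthetases and for transcription and regulators, both counts lay near the share of all genes.

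Other gene families had medians of like size. Of 47 tested cytosolic ribosomal protein genes, 42 were higher in brain, where 15.2% of all genes were, with a median change of 0.33 and a median correlation with the axis of 0.93. Of 34 complex I subunit genes, 27 were higher, with medians of 0.41 and 0.92. The brain pattern of the mitochondrial ribosomal proteins was thus measured in other families too, and no difference from them was tested.

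The second comparison was made in liver, where no member passed but nearly all lay lower. In limma 0 of 74 members were called, where 0% of the 12547 genes were, and a Wilcoxon rank sum test also called 0. Changes were below 0 for 71 of 74 members, against 57.4% of all genes, with a median of -0.13 (large -0.14, small -0.13) against -0.02. An unadjusted p under 0.05 was found for 13 members (17.6%), all lower, and 10.5% of all genes. The smallest limma adjusted p of a member was 0.381. With the array median subtracted, which moved the median of all genes to -0.11, 73 members lay below 0 with a median of -0.22, and 0 passed.

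Mrpl16 ran from 8.61 to 9.12 (median 8.95) in placebo livers and from 8.24 to 8.91 (median 8.59) in haloperidol livers, a change of -0.30 (SE 0.10, limma adjusted p = 0.381). Mrps22 ran from 7.34 to 8.37 (median 8.00) and from 6.99 to 8.10 (median 7.47), a change of -0.36 (SE 0.17, limma adjusted p = 0.468). The groups overlapped for both genes, with 7 and 6 of 9 haloperidol arrays below the placebo mean.

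Mrpl32 was at -0.29 (SE 0.12), Mrps23 at -0.24 (SE 0.087), Mrps31 at -0.21 (SE 0.084), Mrpl20 at -0.20 (SE 0.084) and Mrps24 at -0.14 (SE 0.056), each lower than the placebo mean in 8 of 9 arrays. Only Mrpl18 (0.12, SE 0.13), Mrps9 (0.04, SE 0.072) and Mrpl14 (0.0022, SE 0.077) had values above 0. Of these, Mrpl14 and Mrps9 turned below 0 with the array median subtracted. Mrpl14, which had the largest rise in brain, was at 8.74 to 8.96 in placebo and 8.40 to 9.11 in haloperidol livers.

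Relative to the median gene, the large subunit mean was 1.20 ± 0.10 in placebo and 1.08 ± 0.13 in haloperidol livers (SD, n = 9 each), and that of the small subunit 0.93 ± 0.094 and 0.82 ± 0.11. The differences were -0.12 (SE 0.054) and -0.12 (SE 0.049), 7 and 8 of 9 haloperidol arrays lay below the placebo mean, and the ranges overlapped. The gap between subunits was 0.26 in each group. The first component of the non-member genes held 27.8% of the liver variance and correlated with the large subunit at 0.628 and the small subunit at 0.292 over 18 arrays. The array median, higher with haloperidol in liver (4.89 ± 0.090 against 4.80 ± 0.082, SD, n = 9 each), correlated with the subunits at -0.841 and -0.785. With the component or the array median as covariate the median member change was -0.094 or -0.072, against -0.016 or -0.033 over all genes, and 0 members and 0 of the 12547 genes passed in limma. An unadjusted p under 0.05 was found for 6 members (8.11%) and 1 member, against 11.4% and 5.12% of all genes. After treatment means were removed, the mean correlation between members was 0.29, against 0.034 between all genes. With the component also removed it stayed at 0.27, against 0.046.

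In liver 0 genes of the other lists were called. Values below 0 were measured for 57.4% of all genes, 12 of 12 translation factors and 4 of 4 ribosomal or ribosome-binding proteins with other names. They were also measured for 16 of 20 assembly factors, 14 of 16 synthetases and 9 of 14 transcription and regulator genes. The last list had a median of -0.01, against -0.02 over all genes. Of the other families, 1 of 35 complex I genes lay above 0 (median -0.15), as did 12 of 48 cytosolic ribosomal protein genes (median -0.04). The largest size among translation factors was that of Tsfm (-0.31, SE 0.12). Macrophage markers were below 0 for 4 of 4 genes in liver, and their summed level was 27.37 to 30.33 with placebo and 26.82 to 29.29 with haloperidol. Alas2 was at -0.28. The part of these cells in the liver values was not tested.

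The third comparison asked whether the change with haloperidol differed between tissues, over the 10869 genes kept in both. The fit used all 38 arrays and took them as independent. For 51 of 74 members, 33 large and 18 small, the liver effect was below the brain effect, and for 0 was it above (limma), where 13.9% of all genes were below and 9.16% above. Of these 51, 47 were also among the 51 higher in brain. The value was above 0 only for Mrps5 (0.04), 60 members had an unadjusted p under 0.05, and the median difference was -0.51 over the members against -0.01 over all genes. The liver effect was also below the brain effect for 30 of 34 complex I genes (median -0.55). It was for 32 of 47 cytosolic ribosomal protein genes (median -0.40). This tissue difference was thus measured in other families too, and no difference from them was tested.

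The smallest p was that of Mrpl20, with a liver minus brain difference of -0.89 (SE 0.16, limma adjusted p = 0.000859). Mrpl16 (-0.83, SE 0.16), Mrps18c (-0.58, SE 0.11), Mrpl11 (-1.10, SE 0.23) and Mrpl12 (-1.10, SE 0.23) followed, with limma adjusted p from 0.00163 to 0.00214. Mrpl10, which did not pass in brain, differed by -0.36 (SE 0.11, limma adjusted p = 0.0211). By sign, 69 of 74 members lay above 0 in brain and below 0 in liver, as did 33.7% of all genes kept in both. The exceptions were Mrpl14, Mrpl18 and Mrps9, above 0 in both tissues, and Mrpl35 and Mrps5, below 0 in both. Across the 74 members the brain and liver changes correlated at -0.31, and across all 10869 genes at -0.39, with genes not independent of one another. Without placebo 1L and haloperidol 4N and 4T, 44 members had a liver effect below the brain effect, where 9.09% of all genes did. The replicate block of shared tags gave 43 members beside 9.8% of all genes, and subtracting the array median gave 72 beside 37.5%.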

How the data were processed

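Gene expression was measured on Affymetrix arrays. The authors deposited log2 values. Per the submitters' processing notes these were computed by RMA with the software Affymetrix Expression Console, whose version is not stated. RMA gives arrays a common distribution of probe values, so a change in total RNA is not visible and changes are relative to the other genes. No read depth exists, and the number of arrays limits the precision.

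Of 35556 probes, 21218 carried 1 gene symbol in the platform annotation, which can be old, and the probe of highest mean over all arrays stood for each of 18820 genes. The lowest 33.3% of genes by mean were left out within each tissue. Haloperidol was compared with placebo in limma 3.58.1 (R 4.3.3; lmFit and eBayes, no trend, not robust), two-sided, with Benjamini-Hochberg adjustment over all genes tested and a threshold of 0.05, and tested on simulated data. Lists are described by counts and medians, without a test. Samples of a tissue were separate mice per the design text, grouped by title and treatment label.

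Members and lists (other ribosomal or ribosome-binding proteins, translation factors, assembly factors, synthetases, transcription and regulators, and cell markers) were chosen with earlier results of these data known. Named members were, per subunit, the 6 largest rises and falls past the threshold and the 3 smallest changes in brain, the 3 of smallest unadjusted p in each direction in liver, the 5 of smallest p for the tissue difference and a list chosen for their role. Promoters shown are those of 3 named members with most kinds of motif, with ties broken by the order of symbols.

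Brain and liver arrays share 18 title tags whose meaning is not given. All 18 tags had the same treatment in both tissues, so a brain and a liver with the same tag may come from the same mouse. Deviations from group means of same-tag arrays correlated above 0.1 for 5 of 18 tags (median 0.0011), which cannot exclude shared mice. The main fit of the tissue difference took the arrays as independent, and the replicate block of shared tags was run as an alternative. Alternatives covered the filter, normalization, array-wide covariates, blocks, variance model, array weights, probe choice, subunit assignment, a Wilcoxon rank sum test and arrays left out.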

Additional observations from a re-analysis of the deposited data

Results flagged for a closer look

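Among 132 groups of arrays examined for the named members and the subunit levels, 6 had an extreme array that stood far from its nearest neighbour relative to the group's range, and chance alone flags about 5% of groups. In liver, Mrpl14 was at 8.40 in haloperidol 4N (next lowest 8.77), Mrpl39 at 8.55 in haloperidol 2T (8.94), Mrps18b at 8.46 in haloperidol 3B (8.85) and Mrpl37 at 8.33 in placebo 1N (8.59). The large subunit level relative to the median gene was 0.95 in liver placebo 3L (1.19). In brain, Mrpl28 was at 8.05 in placebo 4B (next highest 7.57).

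The change with haloperidol differed between liver and brain, by the test of the difference itself, for 22 of the 30 named members, with the liver change lower in each, where 13.9% of all genes were lower. The named members were chosen in part by their values in these comparisons, so the count is a description. The differences among large subunit genes were -1.10 for Mrpl11 and Mrpl12, -1.04 for Mrpl14, -1.03 for Mrpl54, -1.01 for Mrpl32, -0.89 for Mrpl20, -0.83 for Mrpl16, -0.81 for Mrpl28, -0.70 for Mrpl44, -0.51 for Mrpl3 and -0.36 for Mrpl10. Among small subunit genes they were -0.81 for Mrps22, -0.78 for Mrps11, -0.73 for Mrps23, -0.71 for Mrps24 and Mrps33, -0.61 for Mrps34, -0.58 for Mrps12 and Mrps18c, -0.57 for Mrps16, -0.54 for Mrps31 and -0.46 for Mrps18a.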

How the results depend on the processing

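The count of 51 members higher in brain became 0 with the array median as a covariate and 0 with the array-wide axis, both of which differ by treatment, and 0 of 12547 genes passed in either fit, against 3816 without them; elsewhere it ran from 38 to 68, and from 42 (without haloperidol 3B) to 56 (without 4L) when each array was left out. Relative to all genes, the brain median was 0.168 (large) and 0.10 (small) with the array median as covariate and 0.0056 and -0.0045 with the axis. Leaving out 1 array gave 0.36 to 0.46 and 0.28 to 0.37 in brain, -0.15 to -0.10 and -0.13 to -0.08 in liver, and 46 to 56 members for the tissue difference. The tag shared by a brain and a liver array as a replicate block gave 43 members for that difference, against 51, and all 5 members named for it kept their call; subtracting the array median gave 72. Counting Mrps18a and Mrps30 in the large subunit and omitting Mrps36 gave brain medians of 0.40 and 0.32. The count of members lower in brain became 1, Mrps5, with array weights (-0.15, limma adjusted p = 0.0278), repeated quantile normalization (-0.12, 0.0488) and the mean of all probes (-0.14, 0.0271); the cause was not tested. Members near 0 turned direction: with the array median subtracted, Mrps5 in brain (0.0261) and Mrpl14 (-0.0841) and Mrps9 (-0.047) in liver; in brain Mrpl4 with quantile normalization (-0.0089), array weights (-0.0127) or without 3 arrays (-0.0081). With the array median as covariate, Mrpl10 (-0.0197), Mrpl37 (-0.0646), Mrpl39 (-0.0509), Mrpl4 (-0.0639), Mrps18b (-0.0467) and, in liver, Mrpl18 (-0.0339) turned. With the axis, Mrpl10 (-0.0586), Mrpl39 (-0.0424), Mrpl4 (-0.0547), Mrps18a (-0.0084), Mrps18b (-0.0717), Mrps22 (-0.1024), Mrps23 (-0.0873) and, in liver, Mrpl14 (-0.0055) and Mrpl18 (-0.0547) turned, as did liver Mrpl14 with the tag digit as a block (-0.0172). With 1 array left out, Mrpl4 in brain ran from -0.0211 to 0.0178 and Mrpl14 in liver from -0.0293 to 0.0589. The liver counts stayed at 0 under every alternative run.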
